A study of Homo sapiens with 2 samples.

Results

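The proteasome genes described here are the 48 genes of the deposited table whose names are PSM, a letter from A to G and a number. They were picked from 58233 gene lines by this name rule. They comprise 19 genes of the core particle (PSMA and PSMB), 20 of the regulatory particle (PSMC and PSMD, with the chaperones PSMD5, PSMD9 and PSMD10), 5 activators and inhibitors (PSME and PSMF) and 4 assembly chaperones (PSMG). Of the 48, 47 had at least 100 estimated counts over both libraries. The other, PSMB11, a catalytic subunit of the thymus, was listed at 0 in both libraries, which allows up to 0.122 CPM in shMPP7 and 0.125 CPM in shCon (3 counts, for counting error only).

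The cells were MDA-MB-231, a human breast cancer line, carrying a lentiviral hairpin against the scaffold gene MPP7 (shMPP7) or a control hairpin (shCon). The labels give a virus dose (MOI) of 10 and 7 days of puromycin selection, with the knockdown kept as a stable line. The shCon cells carry a lentiviral vector too. How many hairpins or clones were used was not stated. There was 1 library per group, with 24513089 estimated counts in shMPP7 and 23928620 in shCon. No p-value can be had from such a design, and every difference below compares 2 libraries, not 2 conditions. CPM is a gene's estimated count per 1000000 counts of its library, FPKM is the authors' value per transcript length, and each ratio is shMPP7 over shCon. A counting interval is an exact 95% Clopper-Pearson interval of the CPM ratio, conditional on the summed count. It covers the error of counting reads and not the spread between cultures, and reads without molecular identifiers are not independent molecules. In bulk RNA, fewer cells with a transcript and less of it per cell cannot be told apart.

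MPP7, the targeted gene, had 21 counts in the shMPP7 library and 42 in the shCon library, a CPM ratio of 0.488 (0.275 to 0.843). The mesenchymal marker VIM had 102008 counts in shMPP7 and 88934 in shCon. The epithelial cadherin CDH1 had 1 count in shMPP7 and 3 in shCon, and the leukocyte gene CD3E was at 0 in both libraries.

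The proteasome degrades proteins tagged with ubiquitin. Its core is a barrel of stacked rings of alpha and beta subunits, with the proteolytic sites on 3 of the beta subunits. A regulatory particle caps the barrel: the base, with a ring of ATPases, unfolds the substrate, and the lid removes the ubiquitin. Interferon replaces the 3 catalytic subunits by PSMB8, PSMB9 and PSMB10, which gives the immunoproteasome. Dedicated chaperones assemble the rings. In mammalian cells the transcription factor NFE2L1 raises proteasome genes together when proteolysis falls short.

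Proteasome transcripts were abundant and stood at nearly the same level in both libraries. The 47 measured genes took 0.860% of all counts in shMPP7 and 0.852% in shCon. The ratio of their summed CPM was 1.01 (1.003 to 1.016). Their median log2 CPM ratio was 0.02, against -0.02 for all 12154 genes with at least 100 counts. The ratio lay within 1.1-fold for 41 of the 47 genes (87.2%), where 71.6% of all genes with at least 1000 counts did. The largest departures were the assembly chaperone gene PSMG4 upward and the activator gene PSME4 downward.

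By the size rule of 1.2-fold, 1 proteasome gene (PSMG4) was higher in shMPP7, where 4.54% of all genes with at least 100 counts were. None of the 47 was lower by that rule, where 11.3% of all genes were. Those backgrounds include genes with fewer counts than any of the 47. Of the 9409 genes in the same range of counts as the 47, 182 were higher and 735 lower by the rule. No proteasome gene reached 1.5-fold in either direction, a size passed upward by 0.609% and downward by 1.17% of all genes. Counting intervals lay above a ratio of 1 for 8 genes (17.0%), against 15.4% of the 9409 genes in the same range of counts. They lay below 1 for 7 genes (14.9%), against 23.9% of those genes. By library totals the share above 1 stood near the background, and 32 intervals included 1. Scaled by the median count ratio, 15 genes lay above 1 (31.9%, against 19.9% of all genes in the range) and 5 below (10.6%, against 19.9%). With TMM factors, 16 lay above (34.0%, against 21.2%) and 5 below (10.6%, against 19.1%).

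**Figure D1:**
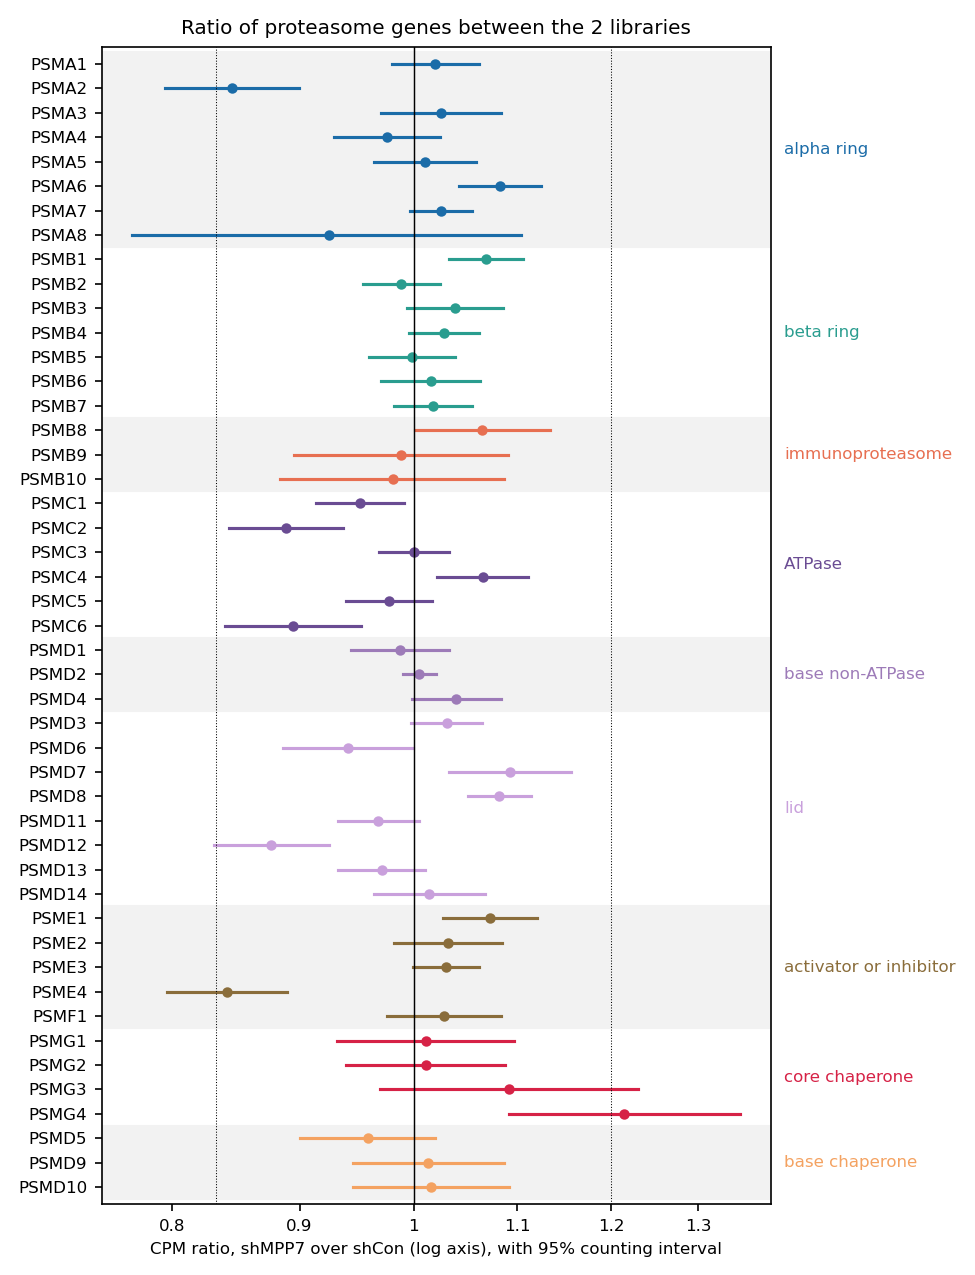
CPM ratio of each of the 47 measured proteasome genes (x axis, shMPP7 over shCon, log scale), 1 row per gene, coloured by role. Points are ratios from 1 library per group, bars are 95% counting intervals, and dotted lines mark 1.2-fold. PSMG4 alone lies past a dotted line, and PSME4, PSMA2, PSMD12, PSMC2 and PSMC6 form the lower edge.

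The promoters of the genes with the highest (PSMG4) and the lowest ratio (PSME4), and of the immunoproteasome gene PSMB9, are shown for their motifs. They are the 250 bases before the RefSeq start on GRCh38.p14, printed in the direction of the gene. PSMG4 is chr6:3258697-3258946 on the plus strand, PSME4 is chr2:53970994-53971243 on the minus strand, and PSMB9 is chr6:32853942-32854191 on the plus strand. Capitals mark matches, on either strand, of TGACNNNGC (the core of the antioxidant response element, which NFE2L1 binds), GGGCGG (the GC box), TTCNNNGAA (the gamma-activated site) and CCAAT (the CCAAT box).
PSMG4: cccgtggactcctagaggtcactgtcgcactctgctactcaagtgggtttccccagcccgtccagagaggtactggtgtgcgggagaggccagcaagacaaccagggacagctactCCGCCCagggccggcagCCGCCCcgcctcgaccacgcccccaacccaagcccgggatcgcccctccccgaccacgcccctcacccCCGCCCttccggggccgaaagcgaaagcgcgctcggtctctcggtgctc
PSME4: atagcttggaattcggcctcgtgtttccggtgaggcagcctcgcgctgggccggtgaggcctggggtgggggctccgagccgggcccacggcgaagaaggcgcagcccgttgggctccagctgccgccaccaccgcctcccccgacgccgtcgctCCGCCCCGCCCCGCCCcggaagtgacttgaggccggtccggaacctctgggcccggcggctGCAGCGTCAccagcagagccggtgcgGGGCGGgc
PSMB9: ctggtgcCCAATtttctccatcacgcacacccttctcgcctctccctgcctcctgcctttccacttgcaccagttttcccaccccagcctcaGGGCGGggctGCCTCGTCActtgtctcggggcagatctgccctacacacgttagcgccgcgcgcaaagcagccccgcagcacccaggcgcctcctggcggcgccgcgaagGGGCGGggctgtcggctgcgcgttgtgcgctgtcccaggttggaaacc

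The PSME4 window held a TGACNNNGC match at bases -34 to -26 before the start and 4 GC boxes, of which 3 overlap by single bases. The PSMB9 window held a TGACNNNGC match at -148 to -140, 2 GC boxes and a CCAAT match. PSMG4 held 3 GC boxes and no match of the other 3 motifs. RefSeq windows were matched by symbol for 42 of the 48 genes, 51 windows in all, and not for PSMA7, PSMB1, PSMB6, PSMB7, PSMD4 and PSMG3. TGACNNNGC occurred in 25.5% of those 51 windows and in 10.9% of all 35116 promoter windows of the same length. GGGCGG occurred in 60.8% of the proteasome windows and 42.6% of all. TTCNNNGAA occurred in 13.7% and CCAAT in 37.3% of the proteasome windows, against 6.57% and 32.0% of all. The median log2 CPM ratio was 0.02 for the 13 measured genes with a TGACNNNGC match and 0.01 for the 28 measured genes without one. A match is a run of letters and no measured binding site.

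The alpha ring subunits, which form the gated ends of the barrel, ranged widely in level. PSMA7 was the most abundant proteasome transcript in both libraries, with 578 FPKM in shMPP7 and 542 FPKM in shCon. PSMA2 was the least abundant of the 7 general alpha subunits, with 74.6 FPKM in shMPP7 and 85.9 FPKM in shCon. The subunits occur in equal copies in the barrel, while their transcripts per length did not stand at equal levels. PSMA8, the alpha subunit of the testis form, had only 4.65 FPKM in shMPP7 and 4.84 FPKM in shCon.

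PSMA2 was the lower exception of the ring, and PSMA6 the higher one. PSMA2 had 1894 counts in shMPP7 and 2186 in shCon, a CPM ratio of 0.846 (0.795 to 0.900). A readthrough gene on the same strand, AC010132.3, shares 781 exon bases with PSMA2 and had 208 counts in shMPP7 and 250 in shCon. The ratio of PSMA2 and AC010132.3 summed was 0.843 (0.794 to 0.893). PSMA6 had 5810 counts in shMPP7 and 5237 in shCon, a ratio of 1.08 (1.04 to 1.12). The intervals of the other alpha genes included 1: PSMA1, PSMA3, PSMA5 and PSMA7 had ratios between 1.01 and 1.03, PSMA4 stood at 0.976 and PSMA8 at 0.924.

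The 7 constitutive beta subunits other than PSMB11 lay close together. Their ratios ran between 0.988 (PSMB2) and 1.07 (PSMB1). All 7 lay within 1.1-fold, as did 67.5% of all genes in the members' count range. PSMB1, a structural subunit, had 6959 counts in shMPP7 and 6355 in shCon. It was the only one of them whose interval (1.03 to 1.11) left out 1. Of all genes in that count range, 15.4% had an interval above 1 and 23.9% below it. PSMB4 was the most abundant, with 478 FPKM in shMPP7 and 446 FPKM in shCon, and PSMB2 the least, with 104 FPKM in shMPP7 and 101 FPKM in shCon. PSMB3 stood at a ratio of 1.04 (0.994 to 1.09).

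The 3 constitutive catalytic subunits had CPM ratios between 0.999 and 1.02. PSMB5, which carries the chymotrypsin-like site, had 220 FPKM in shMPP7 and 215 FPKM in shCon, a CPM ratio of 0.999 (0.960 to 1.04). PSMB6, with the caspase-like site, had 291 FPKM in shMPP7 and 276 FPKM in shCon, a ratio of 1.02 (0.970 to 1.06). PSMB7, with the trypsin-like site, had 388 FPKM in shMPP7 and 371 FPKM in shCon, a ratio of 1.02 (0.982 to 1.06).

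All 3 immunoproteasome subunits were expressed, each below the constitutive subunit it replaces. PSMB8 had 101 FPKM in shMPP7 and 91.4 FPKM in shCon, and its counts of 2091 in shMPP7 and 1916 in shCon gave a CPM ratio of 1.07 (1.0008 to 1.13), barely above 1 at its lower bound. PSMB9 had 70.7 FPKM in shMPP7 and 69.3 FPKM in shCon, a CPM ratio of 0.988 (0.895 to 1.09). PSMB10 had 35.1 FPKM in shMPP7 and 34.0 FPKM in shCon, a CPM ratio of 0.981 (0.884 to 1.09).

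The share of the inducible form differed between the libraries by less than counting error at each of the 3 sites. PSMB8 made up 31.5% of the summed FPKM of PSMB8 and PSMB5 in shMPP7 and 29.9% in shCon. The odds ratio of their counts, shMPP7 over shCon, was 1.07 (exact conditional 95% interval 0.990 to 1.15). PSMB9 made up 19.5% of the sum with PSMB6 in shMPP7 and 20.1% in shCon, an odds ratio of 0.973 (0.872 to 1.09). PSMB10 made up 8.29% of the sum with PSMB7 in shMPP7 and 8.41% in shCon, an odds ratio of 0.963 (0.863 to 1.07). PSMB8 and PSMB9 lie next to each other on chromosome 6 and share 139 exon bases on opposite strands. The antisense gene PSMB8-AS1 overlaps both and had 191 counts in shMPP7 and 228 in shCon, a ratio of 0.819 (0.671 to 0.995). Strand use in counting was not stated, so reads of these overlapping genes cannot be told apart.

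**Figure D2:**
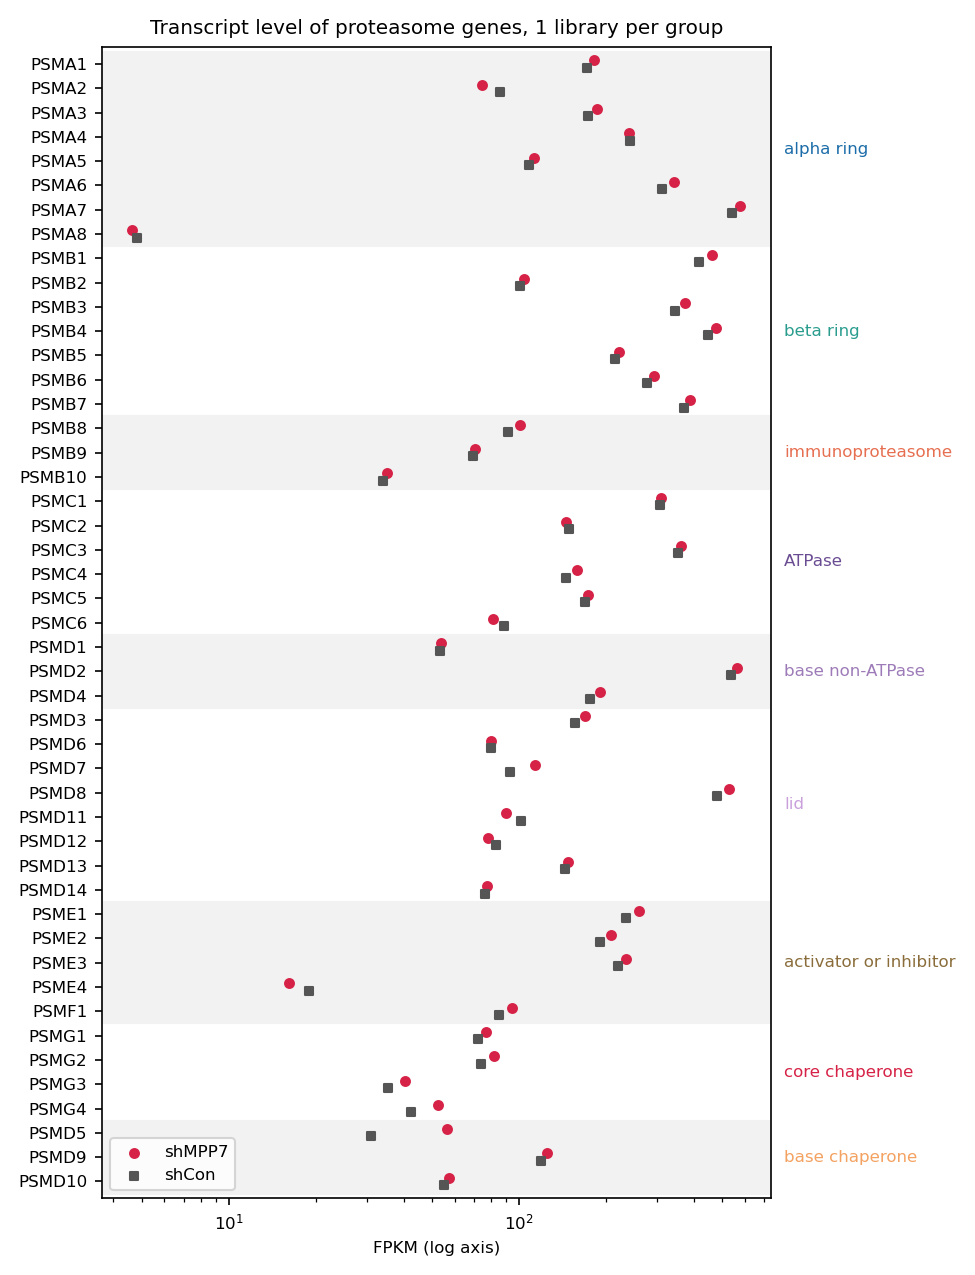
FPKM of each of the 47 measured proteasome genes (x axis, log scale) in the shMPP7 library (circles) and the shCon library (squares), grouped by role. Levels run from PSMA8 under 5 FPKM to PSMA7 at 578 FPKM in shMPP7 and 542 FPKM in shCon, the 2 marks of a gene lie close together, and PSMD5 shows the widest gap.

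Among the ATPases of the base, which unfold the substrate, 3 of 6 genes had an interval below 1 and 1 had an interval above it, against 23.9% and 15.4% of all genes in the members' count range. After the ratios were corrected for transcript length and GC content, the intervals of all 4 included 1. That of PSMC3, which included 1 before the correction, then lay below it, at 0.958 (0.928 to 0.990). The correction used each gene's longest annotated transcript, which need not be the expressed form. Its own error is not in the intervals. PSMC2 had 2670 counts in shMPP7 and 2932 in shCon, a ratio of 0.889 (0.843 to 0.937). PSMC6 had 1909 counts in shMPP7 and 2083 in shCon, a ratio of 0.895 (0.840 to 0.952). PSMC1 stood at 0.952 (0.914 to 0.991). PSMC4 lay on the other side, with 4577 counts in shMPP7, 4192 in shCon and a ratio of 1.07 (1.02 to 1.11). PSMC3 stood at 1.00 (0.969 to 1.03). PSMC5 stood at 0.978 (0.940 to 1.02). The 6 ATPases had a median log2 CPM ratio of -0.05, against -0.02 for all genes with at least 100 counts. Their median log2 FPKM ratio was 0.02, against 0.04 for those genes. By library totals their ratio of summed CPM was 0.977 (0.960 to 0.994), and it was not computed with other scalings. With TMM factors the interval of PSMC1 no longer lay below 1, while those of PSMC2 and PSMC6 did. In FPKM, PSMC1 moved to a log2 ratio of 0.01 and PSMC2 to -0.03. PSMC1 has a pseudogene, PSMC1P1, counted at 475 in shMPP7 and 490 in shCon, and the 2 genes summed gave 0.951 (0.915 to 0.989). PSMC1 also shares 4671 exon bases with NRDE2 on the opposite strand. NRDE2 had 787 counts in shMPP7 and 837 in shCon, a ratio of 0.918 (0.832 to 1.01). The part of this overlap in the PSMC1 value was not tested.

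The 3 other base subunits were level between the libraries. PSMD2, a scaffold of the base, was the most deeply counted proteasome gene, with 32402 counts in shMPP7 and 31460 in shCon. Its ratio was 1.01, with the narrowest interval of the set (0.990 to 1.02). PSMD1, the other large scaffold, stood at 0.988 (0.944 to 1.03), and PSMD4, a ubiquitin receptor, at 1.04 (0.998 to 1.08).

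Of the 8 lid subunits, 2 had an interval above 1 (25%, against 15.4% of all genes in the count range) and 2 below (25%, against 23.9%), with a median log2 CPM ratio of -0.01. Both intervals below 1, of PSMD12 and PSMD6, included 1 after the correction for length and GC content, with the limits given for the ATPases. Corrected, PSMD13 lay below 1, at 0.961 (0.923 to 0.9995). PSMD7, PSMD8 and PSMD14 lay above it, PSMD14 at 1.21 (1.15 to 1.27). PSMD12 had 2591 counts in shMPP7 and 2884 in shCon, a ratio of 0.877 (0.831 to 0.925). PSMD6 stood at 0.941 (0.887 to 0.999), with its upper bound almost at 1 and a log2 FPKM ratio of 0.00. PSMD7, the partner of the deubiquitinase PSMD14, had 2614 counts in shMPP7 and 2335 in shCon, a ratio of 1.09 (1.03 to 1.16). PSMD8 had 9629 counts in shMPP7 and 8686 in shCon, a ratio of 1.08 (1.05 to 1.11). Before the correction PSMD14, which removes the ubiquitin chain, stood at 1.01 (0.964 to 1.07). The intervals of PSMD3, PSMD11 and PSMD13 included 1 before it as well.

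Among the activators, which cap the core in place of the regulatory particle, PSME4 stood apart from the rest. PSME4 (ENSG00000068878, minus strand of chromosome 2, 53864067 to 53970840 of GRCh38) is an activator that works without ATP. It had 2355 counts in shMPP7 and 2731 in shCon. In FPKM it had 16.1 in shMPP7 and 18.9 in shCon. Its CPM ratio of 0.842 (0.796 to 0.890) was the lowest of all 47 genes. PSME1 and PSME2 encode the interferon-induced activator that works with the immunoproteasome. PSME1 had 259 FPKM in shMPP7 and 233 FPKM in shCon, a CPM ratio of 1.07 (1.03 to 1.12). PSME2 had 207 FPKM in shMPP7 and 190 FPKM in shCon, a CPM ratio of 1.03 (0.982 to 1.08). The nuclear activator PSME3 stood at 1.03 (0.999 to 1.06), and PSMF1, known as an inhibitor of the core, at 1.03 (0.975 to 1.08).

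The 4 assembly chaperones of the core all had ratios above 1, as did 4174 of the 9409 genes in the members' count range. Of the 4 intervals, 1 (25%) lay above 1, against 15.4% of those genes. PSMG4 (ENSG00000180822, plus strand of chromosome 6, 3231403 to 3303373 of GRCh38 in GENCODE) pairs with PSMG3 to build the alpha ring. It had 779 counts in shMPP7 and 626 in shCon. In FPKM it had 52.5 in shMPP7 and 42.5 in shCon. Its CPM ratio of 1.21 (1.09 to 1.35) was the highest of all 47 genes. PSMG3 had 593 counts in shMPP7 and 530 in shCon, a ratio of 1.09 (0.970 to 1.23). PSMG1 and PSMG2 form the other pair of alpha ring chaperones. PSMG1 stood at 1.01 (0.931 to 1.097), and PSMG2 at 1.01 (0.939 to 1.09). The chaperone transcripts were less abundant than most subunits, between 40.4 and 82.3 FPKM in shMPP7 and between 35.5 and 74.2 FPKM in shCon. PSMG4 overlaps TUBB2B by 174 exon bases on the opposite strand, and TUBB2B had 221 counts in shMPP7 and 173 in shCon, a ratio of 1.25 (1.02 to 1.53). PSMG4 also shares 1388 exon bases with SLC22A23, which had 407 counts in shMPP7 and 423 in shCon, a ratio of 0.940 (0.818 to 1.08). The part of either overlap in the PSMG4 value was not tested.

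PSMD5, PSMD9 and PSMD10 are chaperones of the base, and in counts none of them differed beyond counting error. PSMD5 had 1992 counts in shMPP7 and 2029 in shCon, a CPM ratio of 0.958 (0.900 to 1.02). PSMD9 stood at 1.01 (0.946 to 1.09). PSMD10 stood at 1.02 (0.945 to 1.09).

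For PSMD5 the deposited FPKM and the counts differed. PSMD5 had 56.5 FPKM in shMPP7 and 30.8 FPKM in shCon, a log2 FPKM ratio of 0.86 (with 1 FPKM added), while its log2 CPM ratio was -0.06. It was the only member whose 2 log2 ratios lay at least 0.3 apart, as they did for 7.15% of all genes with at least 100 counts. The transcript length implied by CPM over FPKM was 1437 bases in shMPP7 and 2754 bases in shCon. The ratio of the 2 implied lengths was 0.522 for PSMD5 and between 0.902 and 1.08 for the other 46 genes, and 0.839% of all genes had a ratio of 0.6 or less. GENCODE lists protein-coding PSMD5 transcripts of 3443, 1538, 569 and 219 bases, and the gene lies on chromosome 9 at positions 120815496 to 120842984 of GRCh38, minus strand. The deposited table gives no values by transcript.

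The log2 ratio was higher in FPKM than in CPM for 45 of the 47 proteasome genes, all but PSMD11 and PSMD14. The share of all genes with a higher ratio in FPKM was not counted. The median gap between the log2 FPKM and the log2 CPM ratio was 0.05 for the proteasome genes and 0.06 for all genes with at least 100 counts. PSMD11 went the other way, with 90.3 FPKM in shMPP7 and 101 FPKM in shCon against a CPM ratio of 0.968 (0.932 to 1.005). PSMD7, with 113 FPKM in shMPP7 and 93.4 FPKM in shCon, had a log2 FPKM ratio of 0.27 and a log2 CPM ratio of 0.13.

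**Figure D3:**
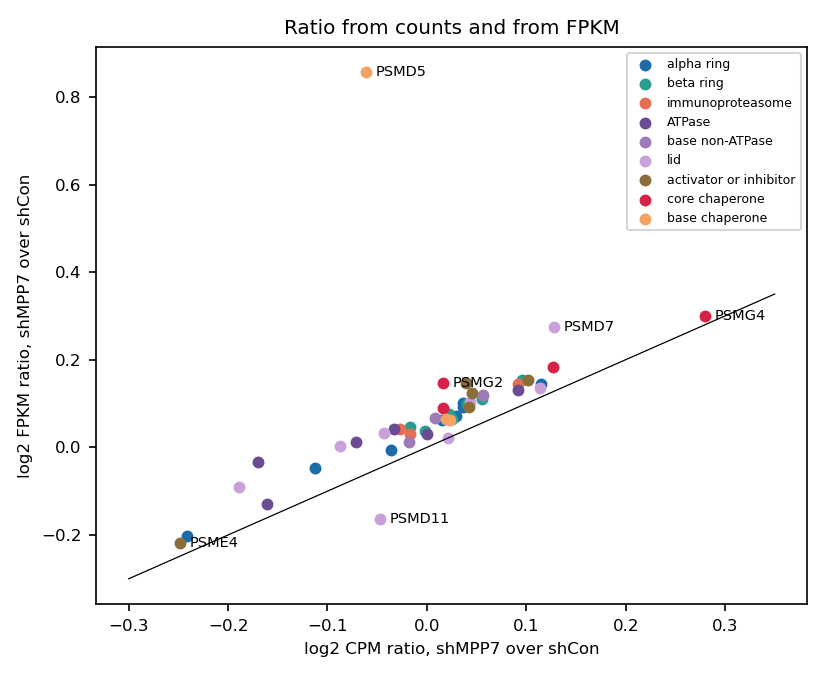
Log2 FPKM ratio (y axis) against log2 CPM ratio (x axis), both shMPP7 over shCon, for the 47 measured proteasome genes, 1 point per gene, coloured by role. The line marks equal values. Most points lie slightly above it, PSMD11 lies below it, and PSMD5 lies far above it at 0.86 in FPKM and -0.06 in CPM.

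Most of the lower proteasome genes had a low GC content. Of the 7 genes with an interval below 1, 6 had a longest transcript with less than 42% GC: PSME4, PSMA2, PSMD12, PSMC2, PSMC6 and PSMD6. PSMC1, at 48.7% GC, was the exception. Of the 14 proteasome genes under 42% GC, 42.9% had an interval below 1, against 53.7% of all genes of that GC class with at least 1000 counts. An interval above 1 was found for 2 of the 14 (14.3%), PSMA6 and PSMB1, against 4.27% of those genes. Of the 15 proteasome genes with 42 to 50% GC, 1 (6.67%) had an interval below 1 and 1 had one above it, against 25.7% and 13.3% of all genes. Of the 16 proteasome genes with 50 to 58% GC none had an interval below 1 and 5 (31.3%) had one above it, against 11.9% and 23.6% of all genes. Spearman's rho between GC content and the log2 CPM ratio was 0.44 over the 47 proteasome genes and 0.48 over all 7517 genes with at least 1000 counts and a GC value. These are descriptions across genes that share the same 2 libraries.

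After the log2 CPM ratios were corrected for the length and GC content of each gene's longest transcript, 4 proteasome genes had an interval below 1. PSMA2, at 0.912 (0.857 to 0.971), and PSME4, at 0.933 (0.883 to 0.986), were the 2 among the 7 that remained below 1, and PSMC3 and PSMD13 were added. The corrected ratio was 0.954 (0.905 to 1.01) for PSMC2 and 0.958 (0.900 to 1.02) for PSMC6. It was 0.972 (0.921 to 1.03) for PSMD12, 0.971 (0.933 to 1.01) for PSMC1 and 1.04 (0.979 to 1.104) for PSMD6. These 4 are 8.51% of the 47, against 12.8% of all genes in the same count range after the correction. Above 1 the corrected count was 11 (23.4%), against 17.6% of those genes. Of the 8 genes above 1 before it, 5 remained (PSMA6, PSMB1, PSMD7, PSMD8 and PSMG4), and PSMA3, PSMA5, PSMB2, PSMD14, PSME3 and PSMF1 were added. PSMG4 kept a ratio of 1.22 (1.09 to 1.35), and PSMA6 moved to 1.204 (1.16 to 1.25). The longest annotated transcript need not be the expressed form: that of PSMA6 has 4730 bases, and its implied length was 691 bases in shMPP7 and 705 in shCon. That of PSMD14 has 4890 bases, and its implied length was 1608 bases in both libraries. The corrected intervals do not include the error of the fitted trend.

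**Figure D4:**
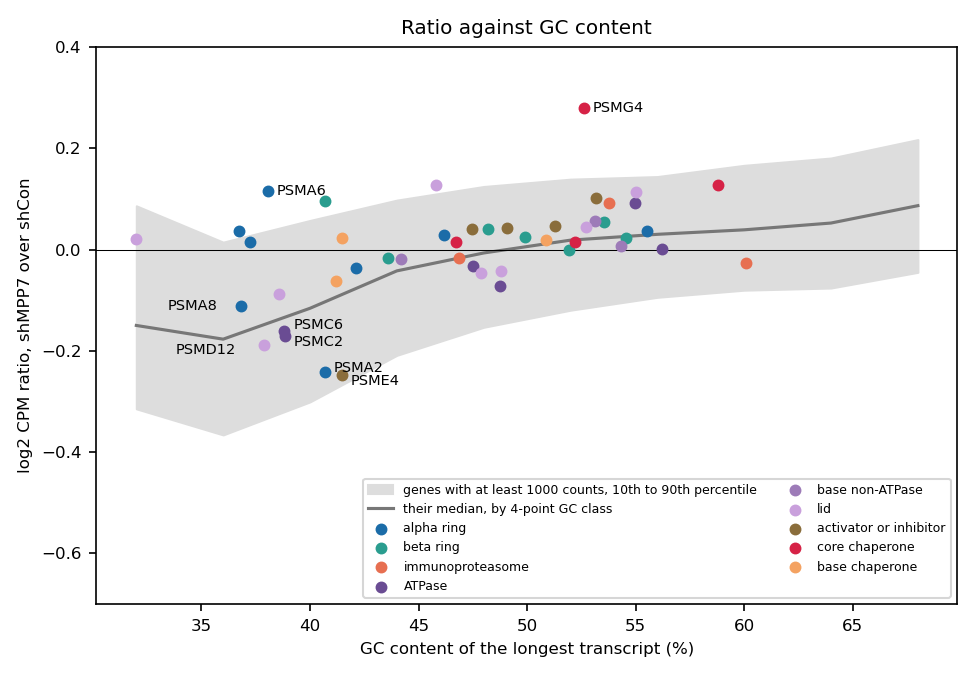
Log2 CPM ratio (y axis, shMPP7 over shCon) against the GC content of the longest transcript (x axis, percent) for the 47 measured proteasome genes, coloured by role. The grey line and band are the median and the 10th to 90th percentile of all genes with at least 1000 counts in 4-point GC classes. By GC class 41 genes lie inside the band, PSME4, PSMA2, PSMD12, PSMC2 and PSMC6 among them, and 6 lie above it (PSMG4, PSMA6, PSMB1, PSMD7, PSMA3 and, by the least, PSMA5).

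Genes that work with the proteasome lay near a ratio of 1 as well. Of 34 such genes, 5 (14.7%) had an interval above 1 and 8 (23.5%) below it, close to the 15.4% and 23.9% of all genes in the members' count range. Their median log2 CPM ratio was -0.03, and none passed 1.2-fold. The regulator NFE2L1 had 9725 counts in shMPP7 and 9000 in shCon, a ratio of 1.05 (1.02 to 1.09), and 126 FPKM in shMPP7 against 103 FPKM in shCon. Its relative NFE2L2 stood at 0.887 (0.833 to 0.944). ADRM1, a ubiquitin receptor of the base, was the highest of the list at 1.08 (1.04 to 1.11), followed by UFD1 at 1.07 (0.990 to 1.15). SEM1, the small lid subunit, was the lowest at 0.866 (0.780 to 0.960), with 690 counts in shMPP7 and 778 in shCon, but its log2 FPKM ratio was 0.09. The log2 FPKM ratio of UFD1 was -0.05, also opposite in sign to its CPM ratio. POMP, the maturation factor of the core, stood at 0.964 (0.902 to 1.03). The peptide transporter genes TAP1 and TAP2, neighbours of PSMB8 and PSMB9, were level too, TAP1 at 1.01 (0.961 to 1.06) and TAP2 at 0.980 (0.945 to 1.02).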

How the data were processed

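RNA of 1 shMPP7 and 1 shCon culture was measured. The deposited table gives estimated counts and FPKM per gene, per the file headers; 73.0% of shMPP7 and 71.8% of shCon counts above 0 were whole. Per the submitters' processing notes, hg19, TopHat2 2.0.9 and Cuffdiff were used; their roles, the counting tool and its strand setting were not stated. All 48 members had an Ensembl ID in GENCODE 29 (GRCh38), which gave positions, exons, lengths and GC content. The deposited estimated counts were divided by library totals (24513089 in shMPP7, 23928620 in shCon), with 0.1 CPM added for log2 ratios; FPKM log2 ratios had 1 FPKM added. For intervals, counts were rounded to whole numbers. Where 215 names had several lines, the line with the larger mean FPKM was used. Genes with at least 100 counts were compared. Motifs were searched in RefSeq promoters (GRCh38.p14). Python 3.11.15, scipy 1.17.1 and edgeR 4.0.16 (TMM factors only) were used, and the interval script was tested on simulated data.

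The members and lists were chosen with earlier results of these data known. Genes named with values were the catalytic and immunoproteasome subunits, the highest and lowest ratios and FPKM levels in each group, members under 100 counts and members whose log2 FPKM and CPM ratios lay at least 0.3 apart; of 34 related genes, the 3 highest and lowest with POMP, NFE2L1, TAP1 and TAP2. Some of these are not reported here. Other names were added after their values were seen. With 1 library per group no test was run; scaling, measure, pseudocount, minimum, shared names and a length and GC trend were varied.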

Additional observations from a re-analysis of the deposited data

How the results depend on the processing

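With the count ratios scaled by their median, 15 members had an interval above 1, and with TMM factors 16, in place of 8; 5 lay below 1 under each, in place of 7. The median log2 ratio of all genes was -0.02 by library totals, 0.00 by the median scaling, 0.01 by TMM and 0.04 in deposited FPKM. With the length and GC trend removed, 3 members were at least 1.2-fold higher (PSMA6, PSMD14 and PSMG4) and 4 had an interval below 1 in place of 7. PSMD14 had a ratio of 1.01 before the removal. Its longest transcript, used for the trend, has 4890 bases, against an implied length of 1608 bases in both libraries. In deposited FPKM 3 members were at least 1.2-fold higher (PSMD5, PSMD7 and PSMG4), and the activators and inhibitor had a median log2 ratio of 0.12 in place of 0.04. The median of all genes rose too, from -0.02 to 0.04. The share of all genes past 1.2-fold was not counted in FPKM or with the trend removed. Over the 31 members with whole counts, an alternative chosen after seeing the data, 4 intervals lay above 1 and 5 below. This setting leaves out 16 members, so its counts are not on the same footing as the 8 and 7 of all 47. The share of all genes with whole counts was not counted. Of 57 group medians under the alternatives, 56 moved by less than the median half-width of the members' counting intervals. This width is larger than the shift that median or TMM scaling gives to all ratios, so those settings could not pass it. The median of the base and lid subunits changed sign within it, from -0.01 by library totals to 0.02 by TMM. Of 32 counts of members, 26 stayed within 1.5 times their reported value. Of 331 values of the 47 single members, 40 moved by at least the half-width of their counting interval and 31 changed sign. Nearly all of the 40 moves came in deposited FPKM or with the length and GC trend removed. Summing shared names could not move a member, because no member shares its name, and the pseudocounts changed values little at these counts. The total of 331 therefore understates how far members moved under FPKM and the trend. No replicate could be left out, and no paired analysis was possible because each group has 1 library. Depth limited PSMA8 most, whose interval (0.771 to 1.104) was the widest.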

Other observations

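The table lists 30 proteasome pseudogenes by name. Of these, 22 were at 0 in both libraries and 7 had under 10 counts over both. PSMC1P1 had 475 counts in shMPP7 and 490 in shCon, a CPM ratio of 0.947 (0.832 to 1.08). PSMC1P5 was listed at 97.5 FPKM in shMPP7 on 3.69 estimated counts, and at 0 in shCon, so its implied length was 1.54 bases in shMPP7 and no fold is given.

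Estimated counts were fractions in at least 1 library for 16 of the 47 measured proteasome genes, PSMG4, PSMA2 and PSMB8 among them. Exons of 18 proteasome genes overlapped those of another gene with over 20 counts over both libraries. Spearman's rho of the FPKM levels of the 47 genes between the libraries was 0.99.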
